A study of Mus musculus with 4 samples.

Results

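The 10 secreted factors described here are inflammatory cytokines and colony-stimulating factors: the interleukins Il1a, Il1b, Il33, Il6 and Il11, leukemia inhibitory factor (Lif), tumor necrosis factor (Tnf), and the colony-stimulating factors Csf1, Csf2 and Csf3. They were taken from a list of gene names and are 10 of the 47729 genes in the expression table. The study grafted Lewis lung carcinoma (LLC) cells, a line derived from a lung tumor of a C57BL/6 mouse, under the skin of the back of syngeneic C57BL/6 hosts. It compared tumors of wild type LLC cells with tumors of LLC cells carrying a pEFIN plasmid for murine chemerin (1-157), a form active without further cleavage, called LLC and LLC-Chem. Tumors were taken on day 5, and the RNA of 2 pools of 3 tumors per group was sequenced. The study generally used mice of 6 to 10 weeks of age, and the sex of the hosts is not stated in the labels.

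Chemerin is a chemoattractant protein for cells bearing the receptor CMKLR1. The plasmid-bearing cells came from individual clones picked after drug selection, so that clone and transgene cannot be told apart, and the study's text also mentions an empty vector that the labels of the control pools do not. Whether the host mice of one pool differed from those of another in litter or day is not given, so the p-values below measure the spread between pools. Levels are in RPM, read numbers scaled to a library of common size. The fitted totals were 28470000 to 33990000 reads per pool, so that 3 reads correspond to 0.0883 to 0.1054 RPM. Read numbers below are the largest that fit the RPM values and can be too high by a read. Rarres2, which encodes chemerin, was at 102 and 98.2 RPM in LLC and 106 and 106 RPM in LLC-Chem (log2 fold change 0.08 ± 0.09 SE, adjusted p = 0.541 by limma). Of the exonic bases of Rarres2, 33.6% are shared with Lrrc61. The transfected gene thus did not separate the groups in this table, and LLC-Chem means below the pools labelled as such. Of the markers of a lung epithelial origin, Krt8 was at 82.8 to 167 RPM and Krt18 at 110 to 139 RPM, whereas Epcam, Nkx2-1, Sftpc and Sftpb were each at or below 0.20 RPM in every pool.

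The IL-1 family includes IL-1α and IL-1β, which both signal through the receptor chain IL1R1 with IL1RAP and switch on the transcription factor NF-kB, and IL-33, a nuclear alarmin released by damaged cells that signals through ST2. TNF engages its own pair of receptors and also activates NF-kB. IL-6, IL-11 and LIF share the signal-transducing chain gp130 and activate STAT3. The colony-stimulating factors M-CSF (Csf1), GM-CSF (Csf2) and G-CSF (Csf3) drive the survival and maturation of macrophages and granulocytes. In a tumor these proteins can come from the carcinoma cells, from fibroblasts or from infiltrating leukocytes, and macrophages and neutrophils are well known sources of IL-1β and TNF.

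Il1a and Il1b are neighbours on mouse chromosome 2, at 129299610 to 129309972 and 129364570 to 129371139, both on the minus strand of GRCm38 (GENCODE M21). The stretches before the start sites of the 3 cytokines that fell in LLC-Chem (Il1a, Il1b, Tnf) are printed with those of Il6 and Csf1, which held other motifs. Each is the 250 bases before the start in the RefSeq annotation of GRCm38.p6, read 5′ to 3′ on the strand of the gene, with motif matches in capitals. They lie at chr2:129309973-129310222 (Il1a, minus strand), chr2:129371140-129371389 (Il1b, minus), chr17:35202008-35202257 (Tnf, minus), chr5:30012864-30013113 (Il6, plus) and chr3:107760470-107760719 (Csf1, minus).
Il1a: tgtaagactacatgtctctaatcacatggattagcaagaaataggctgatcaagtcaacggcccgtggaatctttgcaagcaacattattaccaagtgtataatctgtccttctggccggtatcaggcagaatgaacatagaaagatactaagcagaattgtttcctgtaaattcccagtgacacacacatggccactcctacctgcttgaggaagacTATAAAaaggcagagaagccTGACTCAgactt
Il1b: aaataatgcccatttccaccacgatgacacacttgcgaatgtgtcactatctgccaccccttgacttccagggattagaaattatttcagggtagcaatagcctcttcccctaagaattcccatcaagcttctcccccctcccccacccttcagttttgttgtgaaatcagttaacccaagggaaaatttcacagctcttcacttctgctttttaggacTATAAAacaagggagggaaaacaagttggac
Tnf: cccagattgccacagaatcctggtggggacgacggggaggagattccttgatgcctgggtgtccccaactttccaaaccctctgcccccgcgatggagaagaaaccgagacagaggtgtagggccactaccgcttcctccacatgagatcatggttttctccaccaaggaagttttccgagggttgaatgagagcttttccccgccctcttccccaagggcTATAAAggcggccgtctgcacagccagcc
Il6: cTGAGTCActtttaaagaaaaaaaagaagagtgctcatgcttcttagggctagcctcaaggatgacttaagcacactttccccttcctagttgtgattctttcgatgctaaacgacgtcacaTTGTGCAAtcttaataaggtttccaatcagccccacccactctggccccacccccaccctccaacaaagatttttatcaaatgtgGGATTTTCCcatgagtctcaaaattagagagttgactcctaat
Csf1: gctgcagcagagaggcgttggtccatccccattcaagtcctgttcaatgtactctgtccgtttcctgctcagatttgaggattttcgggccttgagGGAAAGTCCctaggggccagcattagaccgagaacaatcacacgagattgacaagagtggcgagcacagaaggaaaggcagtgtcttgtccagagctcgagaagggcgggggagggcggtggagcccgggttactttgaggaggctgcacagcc

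The capitals in Il1a, Il1b and Tnf include TATAAA, which began 32, 31 and 29 bases before the start. Il1a also held TGACTCA, a match to the AP-1 letters TGANTCA, 12 bases before the start. In Il6 they mark TGAGTCA (AP-1, 249 bases before), TTGTGCAA (the C/EBP letters TTGCNNAA on the opposite strand, 128 bases before) and GGATTTTCC (the kappaB letters GGNNTTTCC, 43 bases before). Csf1 held 1 kappaB match on the opposite strand, 154 bases before the start. Both strands were searched in windows that ran on to 50 bases past the start, and 9 of the 10 cytokines had at least 1 such window. The kappaB letters were found in 3 of the 9 (Il6, Csf1 and Csf2) and in 5.82% of 32851 promoter windows of the genome. The AP-1 letters were found in 4 (Il1a, Il6, Il11, Lif) against 7.81% of all windows, the C/EBP letters in 3 (Il6, Il33, Csf2) against 10.8%, and TATAAA in 4 (Il1a, Il1b, Il33, Tnf) against 13.6%. The cAMP response element TGACGTCA was in 0 of the 9 and in 1.79% of all windows. These are matches of letters only, and Il33 and Il11 had 2 windows each and so more sequence to match.

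Across the 10 cytokines, Il1b, Tnf and Il1a were lower in LLC-Chem tumors, 0 were called higher, and 5 others that could be tested did not pass the test. Of the 13694 genes tested, which averaged 1 RPM or more, 13.5% were called lower and 9.54% higher at an adjusted p under 0.05 (limma on log2(RPM + 0.5)), and 8 of the cytokines were among those tested. Over all 10, both LLC-Chem pools lay below both LLC pools for 6, above them for 2, and the groups overlapped for the other 2. Among the 8 tested, 5 lay below and 1 above, against 39.3% and 33.1% of all genes tested. The median log2 fold change of the 8 was -0.87, beside -0.04 for all genes tested. With 2 pools against 2, an exact permutation test of a single gene cannot go below p = 0.33.

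**Figure D1:**
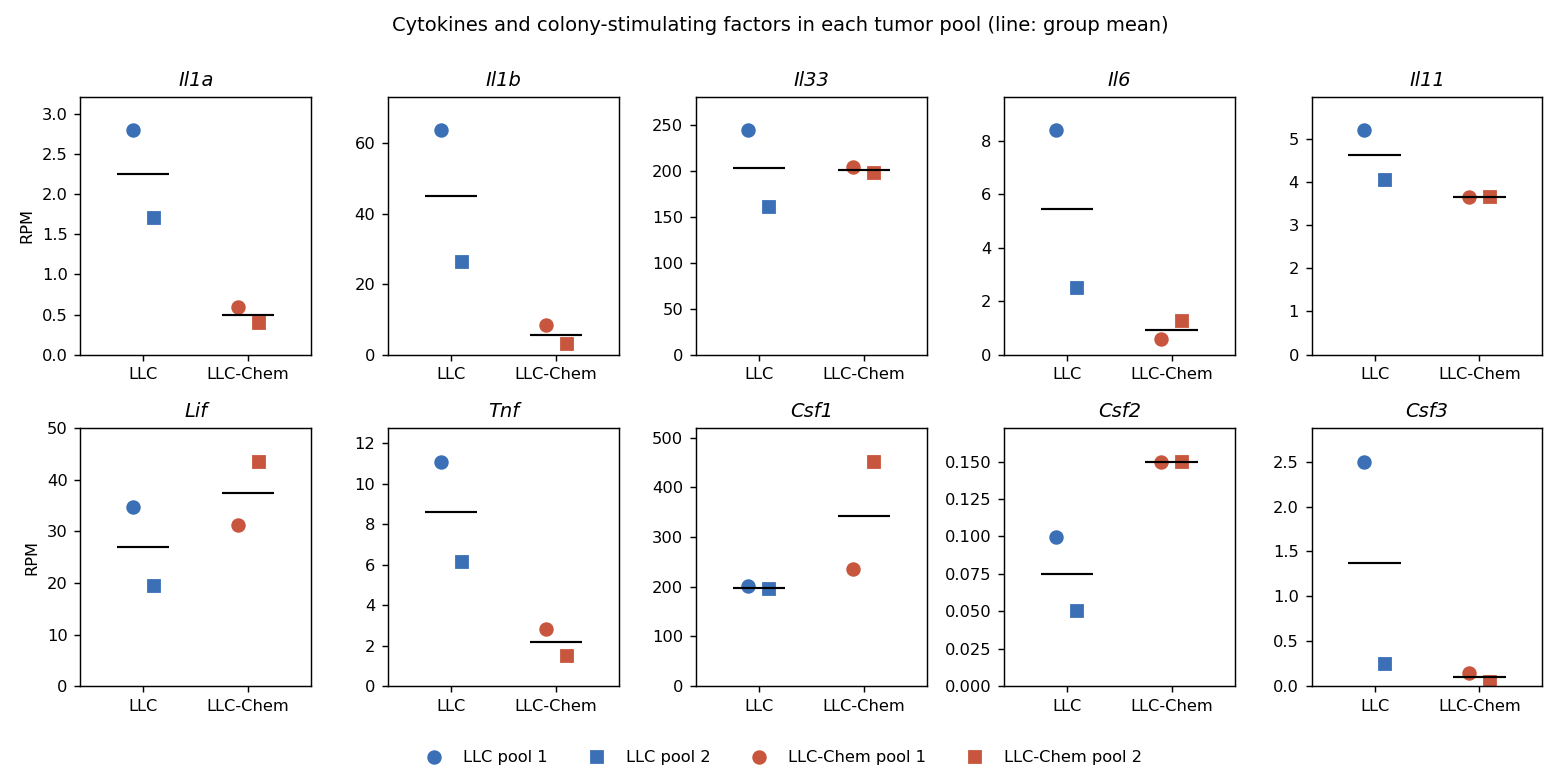
RPM of the 10 cytokine genes in each tumor pool, with LLC in blue and LLC-Chem in red, circles for pool 1, squares for pool 2 and a line at each group mean; each panel has its own axis from 0. Il1a, Il1b, Il6 and Tnf have both LLC-Chem pools under both LLC pools, whereas Csf1 reaches 452 RPM in LLC-Chem pool 2 against 196 to 235 RPM in the other pools.

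Per length of transcript, the highest cytokines were Il33 and Csf1. In RPM per kilobase of exons, Il33 had 84.5 and 55.7 in LLC pools 1 and 2 and 70.6 and 68.4 in LLC-Chem pools 1 and 2. Csf1 had 38.1 and 37.1 in LLC and 44.5 and 85.5 in LLC-Chem. In LLC the 2 genes did not overlap, with Il33 the higher, while in LLC-Chem their ranges overlapped.

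Il1b came next in LLC, at 33.4 and 13.8 RPM per kilobase, but in LLC-Chem it was at 4.40 and 1.57, under Lif (7.20 and 10). In LLC the levels of Lif (7.97 and 4.47) and Tnf (6.77 and 3.75) overlapped, as did those of Il6 (3.46 and 1.03) and Il11 (2.50 and 1.95). In LLC-Chem the order below Lif was less clear, since Il11 (1.75 in both pools), Tnf (1.74 and 0.915) and Il1b lay close together. At the low end, Il6 was at 0.247 and 0.515 in LLC-Chem. Il1a was at 1.42 and 0.861 in LLC and at 0.304 and 0.203 in LLC-Chem, Csf3 at 1.77 and 0.177 and at 0.106 and 0.0354, and Csf2 at 0.0625 to 0.187 over all pools.

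Il1b encodes the precursor of IL-1β, which inflammatory caspases cut into the active cytokine. Its level was 63.6 and 26.2 RPM in LLC pools 1 and 2 and 8.40 and 3.0 RPM in LLC-Chem pools 1 and 2. Both LLC-Chem pools were under both LLC pools, and within each group pool 1 was the higher. The LLC-Chem mean of 5.70 ± 3.82 RPM (SD, n = 2) was 12.7% of the LLC mean of 44.9 ± 26.4 RPM. The log2 fold change was -2.89 ± 0.57 (SE, 95% interval -4.31 to -1.47, adjusted p = 0.0265 by limma), the widest fall among the cytokines tested. These are bulk samples, in which fewer cells of a type and less RNA per cell cannot be told apart.

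Il1a, which encodes the IL-1α that is active without cleavage, was covered by few reads. At most 86 and 48 recovered reads in LLC gave 2.80 and 1.7 RPM, and at most 20 and 13 reads in LLC-Chem gave 0.60 and 0.40 RPM. The groups did not overlap. Il1a fell by 1.44 on the log2(RPM + 0.5) scale (SE 0.30, interval -2.19 to -0.69, adjusted p = 0.0298). The pseudocount understates the change at this level: the LLC-Chem mean in RPM was 22.2% of the LLC mean, and the log2 fold change on recovered reads was -2.14 with edgeR and -2.16 with DESeq2. Of its exonic bases, 11.2% are shared with Gm14023 on the opposite strand, and whether reads were counted by strand is not given in the sources used here.

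Il33 was not called. It was at 244 and 161 RPM in LLC and at 204 and 197 RPM in LLC-Chem, so that both LLC-Chem pools lay between the LLC pools. Its log2 fold change was 0.02 ± 0.20 (SE, interval -0.49 to 0.52, adjusted p = 0.953), and its sign depended on the pools: -0.28 without LLC pool 2 and 0.32 without LLC pool 1. The fall of Il1a and Il1b therefore did not extend to this IL-1 family cytokine, although the difference between the genes was not tested.

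Tnf, the founding member of its family, was at 11.1 and 6.15 RPM in LLC and at 2.85 and 1.50 RPM in LLC-Chem. The groups did not overlap, and pool 1 was again the higher in each. The LLC-Chem mean of 2.17 ± 0.954 RPM was 25.2% of the LLC mean of 8.62 ± 3.50 RPM (SD, n = 2). The log2 fold change was -1.76 ± 0.38 (SE, interval -2.70 to -0.83, adjusted p = 0.0308).

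Calls rested on all 4 pools. Leaving out any 1 of them (LLC pool 1 or 2, or LLC-Chem pool 1 or 2) left Il1b with an adjusted p of 0.065 to 0.197, Il1a with 0.0846 to 0.221 and Tnf with 0.0775 to 0.231. Each log2 fold change kept its sign, at -3.57 to -2.22 for Il1b, -1.73 to -1.14 for Il1a and -2.16 to -1.36 for Tnf. Without any 1 pool, 0 of the genes tested were called in either direction by limma, with 998 to 2359 higher and 1580 to 2823 lower at an unadjusted p under 0.05.

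None of the 3 gp130 cytokines passed the test given above. Il6, which drives the acute phase response, had its highest value in LLC pool 1, at 8.40 RPM, followed by 2.50 RPM in LLC pool 2, 1.25 RPM in LLC-Chem pool 2 and 0.60 RPM in LLC-Chem pool 1. The groups did not overlap, but the LLC pools differed 3.36-fold from each other. The log2 fold change of -1.90 ± 0.55 (SE, interval -3.27 to -0.52) gave an adjusted p of 0.0585 with limma, and of 0.00184 with DESeq2, 0.00243 with edgeR's likelihood ratio test and 0.0521 with its quasi-likelihood test on the recovered reads. It was 0.0159 in limma with the pools paired crosswise, a setting chosen after seeing the data.

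Il11, a gp130 cytokine of stromal and epithelial cells, was at 5.20 and 4.05 RPM in LLC and at 3.65 RPM in both LLC-Chem pools. Its log2 fold change of -0.30 ± 0.21 (SE, interval -0.82 to 0.23) did not pass the test (adjusted p = 0.325). Lif, which maintains embryonic stem cells in culture and also signals through gp130, was at 34.7 and 19.4 RPM in LLC and at 31.3 and 43.5 RPM in LLC-Chem. The groups overlapped, with a log2 fold change of 0.50 ± 0.30 (SE, interval -0.26 to 1.25, adjusted p = 0.258).

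Csf1, the main growth factor of macrophages, was at 201 and 196 RPM in LLC and at 235 and 452 RPM in LLC-Chem. Both LLC-Chem pools lay above both LLC pools, and LLC-Chem pool 2 stood apart from the other 3. The log2 fold change of 0.71 ± 0.30 (SE, interval -0.03 to 1.45) had an adjusted p of 0.131 with limma. It was 0.24 without LLC-Chem pool 2 and 1.18 without LLC-Chem pool 1, and Csf1 was called higher by DESeq2 (0.0218 after adjustment) and by the likelihood ratio test of edgeR (0.0394) but not by its quasi-likelihood test (0.102). Over all 4 pools Csf1 had the highest mean RPM of the 10, not corrected for length, while in LLC alone Il33 was higher (202 against 198 RPM), and the tested genes with the pattern nearest to it over the 4 pools were 4732440D04Rik, Trmt13 and Snora17, with root mean square differences of 0.06, 0.08 and 0.09 on the centred log2 scale.

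Csf3, which mobilises neutrophils, and Csf2, which acts on granulocytes and macrophages, were too low to be tested. Csf3 had at most 77 reads in LLC pool 1 (2.50 RPM), most of its signal, and at most 7 reads in LLC pool 2. LLC-Chem pools 1 and 2 had at most 5 and 1 reads. In RPM both LLC-Chem values were lower, but LLC pool 2 was closer to them than to LLC pool 1. With the filter lowered to a mean of 0.25 RPM, the log2 fold change of Csf3 was -1.33 ± 0.63 (SE, adjusted p = 0.18). Csf2 had at most 3 and 1 reads in LLC and at most 5 and 5 in LLC-Chem, at or near the 3-read floor, so that a difference was not detectable at this depth. In unscaled RPM, LLC pool 1 was above LLC pool 2 for all 10 cytokines, from 1.03-fold for Csf1 to 10-fold for Csf3. The order turned for Csf1 with TMM or median-of-ratios scaling, and that of Csf2 rested on at most 3 reads against 1.

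The receptor chains for these cytokines were mostly lower in LLC-Chem. Of 15 genes, all of them tested, 9 were called lower, 2 higher and 4 were not called, and both LLC-Chem pools lay under both LLC pools for 11, beside 39.3% of all genes tested. Their median log2 fold change was -0.79. The backgrounds are the 13.5% and 9.54% of all genes given above. The 9 lower calls became 6 with the replicate block and 4 with eBayes without trend, and 0 with any 1 pool left out or with no filter on low values. The 2 higher calls became 1 with eBayes without trend and 0 with any 1 pool left out or with no filter.

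**Figure D2:**
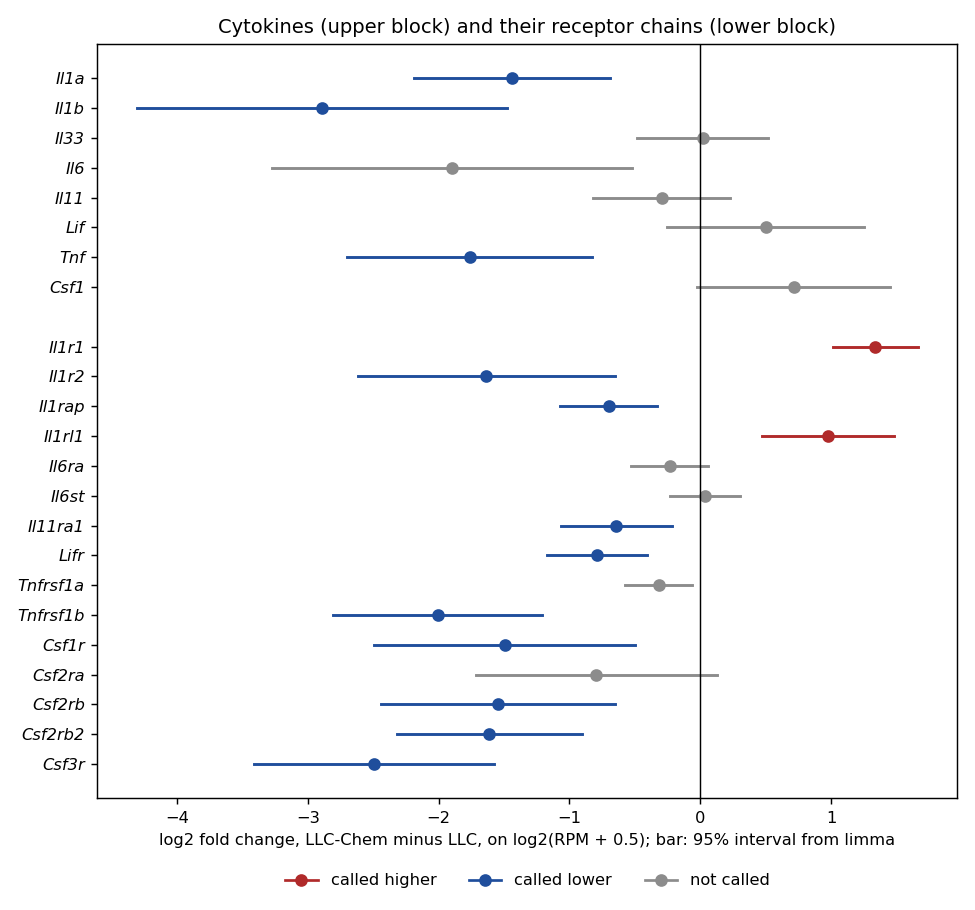
Log2 fold changes of LLC-Chem over LLC with 95% intervals from limma on log2(RPM + 0.5) for the 8 cytokines tested (upper block) and 15 receptor chains (lower block), in red where called higher, blue where called lower and grey where not called. Il1r1 and Il1rl1 lie right of 0 and the decoy Il1r2 left of it, as lie Tnfrsf1b and the receptor chains of the colony-stimulating factors, with Csf2ra in grey.

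The IL-1 receptor genes gave calls in both directions. Il1r1, the signalling receptor for IL-1α and IL-1β, was at 158 and 132 RPM in LLC and at 346 and 388 RPM in LLC-Chem, a rise of 1.34 ± 0.13 on the log2 scale (SE, adjusted p = 0.01). Il1rl1, which encodes the IL-33 receptor ST2, was at 151 and 143 RPM in LLC and at 235 and 356 RPM in LLC-Chem (log2 fold change 0.97 ± 0.20, adjusted p = 0.0296). Neither group overlapped the other for these genes.

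Il1r2, a decoy that binds IL-1 without signalling, fell from 27.0 and 18.2 RPM in LLC to 10.2 and 4.50 RPM in LLC-Chem (log2 fold change -1.64 ± 0.40, adjusted p = 0.0397). Il1rap, the accessory chain shared by the IL-1 and IL-33 receptors, was at 48.4 and 39.1 RPM in LLC and at 25.1 and 28.1 RPM in LLC-Chem (-0.70 ± 0.15, adjusted p = 0.0302). The ratio of Il1r1 to Il1r2 in RPM was therefore 5.86 and 7.23 in LLC and 33.9 and 86.3 in LLC-Chem.

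Of the TNF receptors, Tnfrsf1b, found mostly on leukocytes and endothelial cells, fell from 153 and 193 RPM in LLC to 59.5 and 30.1 RPM in LLC-Chem (-2.01 ± 0.32, adjusted p = 0.0179). The widely expressed Tnfrsf1a was at 223 and 238 RPM in LLC and at 193 and 176 RPM in LLC-Chem, and was not called (-0.32 ± 0.10, adjusted p = 0.0752). Groups were apart for both receptor genes.

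Among chains of the IL-6 family, the shared Il6st (gp130) was at 182 and 206 RPM in LLC and at 195 and 203 RPM in LLC-Chem (0.04 ± 0.11, adjusted p = 0.804), and Il6ra was not called either (-0.23 ± 0.12, adjusted p = 0.19). The ligand-specific Lifr fell by 0.79 (SE 0.15, adjusted p = 0.0261) and Il11ra1 by 0.64 (SE 0.17, adjusted p = 0.0475) on the log2 scale. The interval of the Il6st difference ran from -0.23 to 0.31, and the groups overlapped for this gene but not for the LIF and IL-11 chains.

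Csf1r, the M-CSF receptor of macrophages, was at 329 and 532 RPM in LLC and at 217 and 101 RPM in LLC-Chem (-1.50 ± 0.40, adjusted p = 0.049). The pool with the highest Csf1, LLC-Chem pool 2, had the lowest Csf1r, and the ratio of Csf1 to Csf1r was 0.611 and 0.369 in LLC and 1.08 and 4.48 in LLC-Chem. Csf3r, the G-CSF receptor of neutrophils, was at 76.1 and 61.0 RPM in LLC and at 17.5 and 7.75 RPM in LLC-Chem (-2.49 ± 0.37, adjusted p = 0.0156). Csf2rb, the beta chain of the GM-CSF receptor, and its copy Csf2rb2, which in the mouse serves IL-3 and not GM-CSF, had log2 fold changes of -1.55 and -1.61 (adjusted p = 0.0362 and 0.0215), whereas Csf2ra was not called (adjusted p = 0.162). Csf2rb and Csf2rb2 are near-identical copies, and reads may have been split between them.

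Among related ligands and antagonists, 16 genes were looked up and 11 tested, 2 were called lower and 0 higher (13.5% and 9.54% of all genes tested), and the median log2 fold change was -0.56. Il18, an IL-1 family cytokine, was at 17.2 and 23.4 RPM in LLC and at 8.89 and 8.40 RPM in LLC-Chem (-1.17 ± 0.19, adjusted p = 0.0188). Its inhibitor Il18bp was at 19.3 and 13.2 RPM in LLC and at 4.95 and 5.15 RPM in LLC-Chem (-1.57 ± 0.22, adjusted p = 0.0147). Cytokine and inhibitor were both lower, and the groups did not overlap for either.

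Il1rn, the IL-1 receptor antagonist, was singled out after its values were seen. It was at 113 and 36.7 RPM in LLC and at 45.4 and 18.9 RPM in LLC-Chem, with overlapping groups and no call (-1.12 ± 0.62, adjusted p = 0.22). Its ratio to Il1b was 1.78 and 1.40 in LLC and 5.40 and 6.32 in LLC-Chem, higher in both LLC-Chem pools.

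Of 10 genes for the maturation and release of these cytokines, 4 were called lower and 1 higher, beside 13.5% and 9.54% of all genes tested. Nlrp3, the sensor of the inflammasome that activates caspase-1, was at 18.9 and 15.2 RPM in LLC and at 4.80 and 3.20 RPM in LLC-Chem (-1.98 ± 0.24, adjusted p = 0.0128). Its adaptor Pycard fell by 1.07 (adjusted p = 0.0382), the pore protein Gsdmd by 0.42 (adjusted p = 0.0464) and Casp8 by 0.38 (adjusted p = 0.0477). Adam17, the protease that sheds TNF from the cell surface, rose from 169 and 184 RPM in LLC to 286 and 298 RPM in LLC-Chem (0.73 ± 0.10, adjusted p = 0.0144).

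NF-kB subunits, inhibitors and target genes, which lie downstream of the IL-1 and TNF receptors, were mostly not called. Of 20 genes 19 were tested: 4 were called lower, 1 higher and 14 were not called, beside 13.5% and 9.54% of all genes tested, with a median log2 fold change of 0.20. Both LLC-Chem pools lay above both LLC pools for 8 of the 19 and below them for 6, beside 33.1% and 39.3% of all genes tested. The 20th, Ccl20, was at 0 in every pool. Cxcl2, a neutrophil chemoattractant, fell from 46.3 and 15.1 RPM in LLC to 5.90 and 5.20 RPM in LLC-Chem (-2.16 ± 0.50, adjusted p = 0.0355). The signalling adaptor Traf1 (-1.32, adjusted p = 0.0266), the apoptosis inhibitor Birc3 (-0.65, adjusted p = 0.0331) and the adhesion molecule Icam1 (-1.13, adjusted p = 0.0491) were also lower. Vcam1, another adhesion molecule, was higher, at 74.9 and 68.5 RPM in LLC and 124 and 199 RPM in LLC-Chem (1.13 ± 0.23, adjusted p = 0.0274). The 4 lower calls became 2 with the replicate block, 1 with eBayes without trend and 0 with no filter on low values or any 1 pool left out, while the higher calls ranged from 0 under the last 3 of these to 6 with the likelihood ratio test of edgeR.

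**Figure D3:**
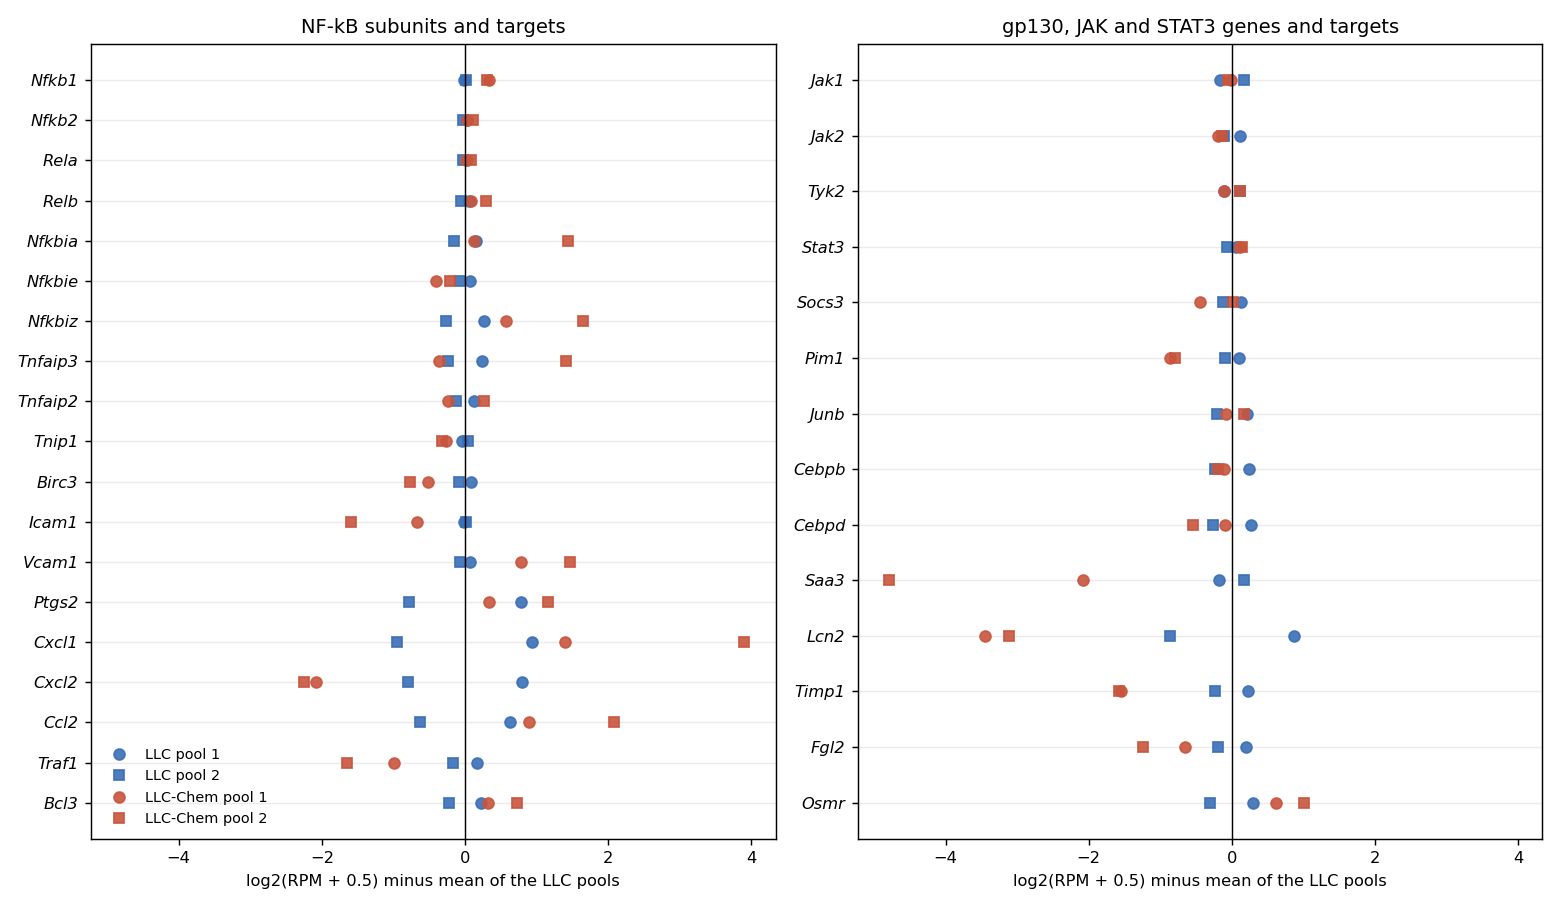
Log2(RPM + 0.5) minus the mean of the LLC pools for 19 NF-kB genes (left) and 14 gp130, JAK and STAT3 genes (right), with LLC in blue, LLC-Chem in red, circles for pool 1 and squares for pool 2. LLC-Chem pool 2 lies furthest to the right for Nfkbia, Nfkbiz, Tnfaip3, Cxcl1 and Ccl2, while Saa3, Lcn2 and Timp1 lie to the left in both LLC-Chem pools.

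LLC-Chem pool 2 was above LLC-Chem pool 1 for 13 of these 20 genes, and LLC pool 1 was above LLC pool 2 for 16 of them. These counts were not taken over all genes. The following genes were picked after their values were seen. Tnfaip3, a feedback inhibitor of NF-kB, was at 40.0 and 28.5 RPM in LLC and at 26.2 and 90.7 RPM in LLC-Chem (adjusted p = 0.508). The inhibitor Nfkbia was at 179 and 144 RPM in LLC and at 176 and 435 RPM in LLC-Chem (adjusted p = 0.203). For both genes LLC-Chem pool 1 was within or under the range of the LLC pools, and only LLC-Chem pool 2 was high.

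Cxcl1, a chemokine close to Cxcl2, was at 56.9 and 15.0 RPM in LLC and at 77.9 and 448 RPM in LLC-Chem (2.65 ± 0.95, adjusted p = 0.0939). Ccl2, which recruits monocytes, was at 303 and 126 RPM in LLC and at 366 and 829 RPM in LLC-Chem (1.49 ± 0.53, adjusted p = 0.0919). Neither was called by limma, both had the LLC-Chem pools above the LLC pools, and LLC-Chem pool 2 exceeded pool 1 by 5.75-fold for Cxcl1 and 2.27-fold for Ccl2, beside 1.92-fold for Csf1.

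Genes of the gp130, JAK and STAT3 pathway and its targets gave 5 lower and 0 higher calls among 14 tested, beside 13.5% and 9.54% of all genes tested (9 not called, median log2 fold change -0.19). Stat3 itself (0.13 ± 0.10, adjusted p = 0.359) and its feedback inhibitor Socs3 (-0.21 ± 0.18, adjusted p = 0.414), both singled out after their values were seen, did not pass. The called genes with the lowest adjusted p were the protease inhibitor Timp1, the kinase Pim1, the iron-scavenging Lcn2 and the acute phase protein Saa3. Timp1 was at 261 and 190.0 RPM in LLC and at 76.1 and 74.3 RPM in LLC-Chem (-1.56 ± 0.16, adjusted p = 0.0114), and Pim1 fell by 0.83 (adjusted p = 0.0153). Lcn2 was at 57.1 and 16.9 RPM in LLC and at 2.40 and 3.15 RPM in LLC-Chem (-3.28 ± 0.55, adjusted p = 0.0192). Saa3 was at 625 and 797 RPM in LLC and at 167 and 25 RPM in LLC-Chem (-3.43 ± 0.82, adjusted p = 0.0391). The fifth call, Fgl2, was named after its values were seen (-0.94 ± 0.24, adjusted p = 0.0429). The 5 lower calls became 3 with eBayes without trend and 0 with no filter on low values or any 1 pool left out. Lcn2 and Saa3 are also known as NF-kB targets and products of neutrophils and macrophages.

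Markers of leukocytes moved with the lower cytokines and receptors, and the counts that follow stand beside the 13.5% lower and 9.54% higher of all genes tested. Of 8 general leukocyte markers 7 were called lower, with a summed level of 1229 and 1514 RPM in LLC and 770.5 and 469 RPM in LLC-Chem, and Laptm5, the one with the most reads, at 326 and 431 against 227 and 139 RPM. Of 10 macrophage markers 5 were lower and the summed level was 2004 and 2387 RPM against 1447 and 899 RPM, with C1qb, at the most reads, not called (adjusted p = 0.103). Of 5 neutrophil markers tested 4 were lower, and the sum over all 10 was 210 and 174 RPM against 46.0 and 25.4 RPM. Mmp9 had the most reads of these (89.1 and 112 against 19.9 and 15.2 RPM), while Ly6g, Camp, Ngp and Mrgpra2a, which define mature granulocytes and their precursors, were under 0.25 RPM in every pool.

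Mast cell markers (4 lower of 4 tested, 74.3 and 31.9 against 15.5 and 11 RPM summed over 7, Cma1 with the most reads) and lymphocyte markers (3 lower of 4 tested, 19.7 and 15.2 against 3.90 and 1.3 RPM summed over 10, Nkg7 with the most reads) were lower as well. So were all 8 endothelial markers, whose summed level was 252 and 172 RPM in LLC and 59.9 and 34.9 RPM in LLC-Chem, with Pecam1 having the most reads. Fibroblast markers were not lower as a group: 1 of 8 (Pdgfra) was called higher and 2 (Col1a1 and Col1a2) lower, all named after their values were seen. The summed levels of the 8 were 23625 and 44700 RPM in LLC, which enclosed the 32871 and 29796 RPM of LLC-Chem. Much of these sums was Col3a1, the gene with the most reads, at 11581 and 23950 RPM in LLC and 24122 and 22762 RPM in LLC-Chem. Of the carcinoma markers 0 of 3 were called in either direction, nor was Krt10, the 1 keratinocyte marker tested.

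**Figure D4:**
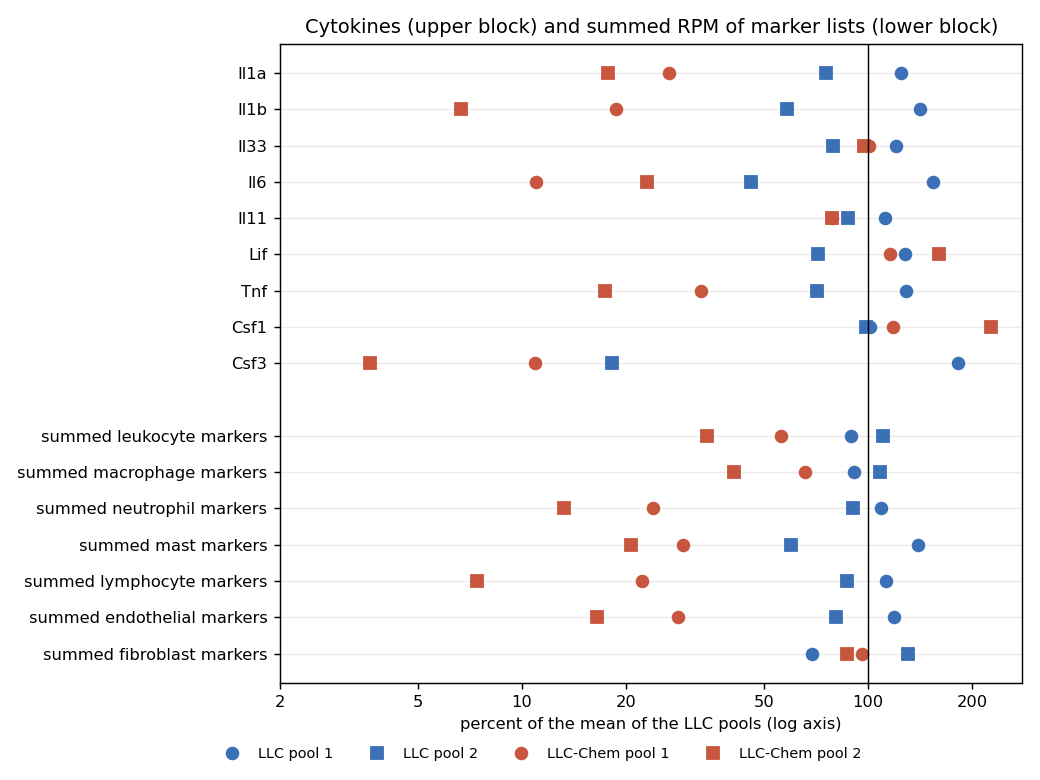
Levels in each pool as a percent of the mean of the LLC pools, on a log axis, for 9 cytokines (upper block, Csf2 left out as it was near the read floor) and for the summed RPM of 7 marker lists (lower block), with LLC in blue, LLC-Chem in red, circles for pool 1 and squares for pool 2. Il1a, Il1b and Tnf in LLC-Chem span 6.67% to 33% of the LLC mean and the summed neutrophil markers 13.2% to 24%, while both LLC-Chem pools lie between the LLC pools for Il33 and for the summed fibroblast markers.

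The ratios of the lower cytokines to leukocyte markers, chosen after their values were seen, depended on the marker. Per 100 RPM of summed leukocyte markers, Il1b was at 5.17 and 1.73 RPM in LLC and at 1.09 and 0.639 RPM in LLC-Chem, and Tnf at 0.902 and 0.406 RPM in LLC and at 0.370 and 0.320 RPM in LLC-Chem. Il1a was at 0.228 and 0.112 RPM in LLC and at 0.0778 and 0.0852 RPM in LLC-Chem on the same scale. All 3 were lower in both LLC-Chem pools relative to this list. Relative to Ptprc alone, the leukocyte marker CD45, Il1b was also lower in both LLC-Chem pools (0.511 and 0.211 against 0.152 and 0.102), whereas the groups overlapped for Tnf (0.0891 and 0.0494 against 0.0516 and 0.0512). For Il1a this ratio was 0.0225 and 0.0137 in LLC and 0.0109 and 0.0137 in LLC-Chem, so that the groups met.

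Per 100 RPM of summed neutrophil markers, Il1b was at 30.3 and 15.1 RPM in LLC and at 18.3 and 11.8 RPM in LLC-Chem. Tnf was at 5.28 and 3.53 RPM in LLC and at 6.20 and 5.89 RPM in LLC-Chem, and Il1a at 1.33 and 0.976 RPM and at 1.30 and 1.57 RPM. Relative to this list the groups overlapped for Il1b and Il1a, while Tnf was higher in both LLC-Chem pools. The overlap for Il1b rested on Mmp9, for without that gene, an alternative chosen after seeing the data, Il1b was at 52.6 and 42.3 RPM in LLC and at 32.2 and 29.3 RPM in LLC-Chem. Tnf was then at 9.18 and 9.90 RPM in LLC and at 10.9 and 14.6 RPM in LLC-Chem. Relative to the single neutrophil and monocyte gene S100a9, Il1b was lower in both LLC-Chem pools (1.05 and 0.992 against 0.636 and 0.600), whereas the groups overlapped for Tnf (0.184 and 0.233 against 0.216 and 0.30). They overlapped for Il1a as well (0.0464 and 0.0643 against 0.0455 and 0.08). These ratios were not tested, and the part of leukocyte content in the lower cytokine levels was not tested either.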

How the data were processed

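RNA of pooled tumors was extracted with TRIzol and a column kit, and libraries were made with the Illumina TruSeq kit. Per the study's methods, the authors aligned paired-end reads to GRCm38.p4 (mm10) with STAR and counted them on Ensembl genes with HTSeq; tool versions and the strand setting of counting are not given in the sources used here. The deposited values are RPM for 47729 genes. Within a tolerance of 0.001 RPM, 100.0% of values above 0 were whole steps of about 0.04997 RPM. From these a scaling to 20000000 reads, rounded up, was inferred, and the library totals (28470000 to 33990000 reads) were fitted. Since the totals exceed 20000000, a step can stand for different read numbers. The largest that fits was taken as the recovered reads, which can be too high by a read. At this depth the spread between pools, more than counting, limited the precision for genes above a few RPM.

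Groups came from the sample labels (2 pools each). The 13694 genes averaging 1 RPM or more were tested two-sided with limma 3.58.1 in R 4.3.3 (lmFit, eBayes with trend) on log2(RPM + 0.5), because RPM are not counts; fold changes of low genes are understated on this scale. P-values were adjusted by the Benjamini-Hochberg method over all genes tested and called at 0.05. The study used edgeR on counts; edgeR 4.0.16 (quasi-likelihood and likelihood ratio) and DESeq2 1.42.0 on the recovered reads were alternatives, besides pseudocounts of 0.1 and 1, TMM and median-of-ratios scaling, a minimum of 0.25 RPM or none, eBayes without trend, a replicate block and leaving out each pool. A crossed replicate block was added after seeing the data. The cytokines and the lists were chosen with earlier results of these data known. All cytokines were named; from the other lists, up to 4 called genes per direction with the lowest adjusted p and the receptor chains; from marker lists the highest gene; and the 3 genes nearest to the highest cytokine. Coordinates and exon lengths came from GENCODE M21, which held 47224 of the identifiers, and promoters from RefSeq; Csf3 had no promoter entry. Replicate numbers in the labels were not taken to pair the pools: deviations of same-numbered pools had a correlation of -0.14. Summaries and plots used matplotlib 3.10.9, pandas 2.3.3, numpy 2.4.6 and Python 3.11.15.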

Additional observations from a re-analysis of the deposited data

How the results depend on the processing

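The calls of Il1a, Il1b and Tnf held under 11 of 12 alternatives other than leaving out a pool, the exception being no filter on low values. Without that filter, 0 cytokines were called lower (3 at an unadjusted p under 0.05), 0 receptors higher and 0 lower, 0 NF-kB genes in either direction, 0 gp130-STAT3 genes lower, and 1 gene higher and 0 lower among all tested, with 3394 higher and 4003 lower at an unadjusted p under 0.05. That setting tests 26260 genes. Leaving out any pool gave 0 calls (lowest 0, highest 0) for cytokines lower, receptors higher and lower, NF-kB genes higher and lower, gp130-STAT3 genes lower and all genes higher and lower, where 1 residual degree of freedom remains. Il33 ranged from -0.28 to 0.32, turning negative at -0.28 without LLC replicate 2 and at -0.0044 without LLC-Chem replicate 1. DESeq2 and edgeR's likelihood ratio test each called 1 cytokine higher, Csf1. NF-kB genes called higher numbered 2 with TMM, median-of-ratios scaling and edgeR's quasi-likelihood test, 6 with its likelihood ratio test, 3 with DESeq2 and 0 by eBayes without trend. The latter called 1 receptor higher and 4 lower, 1 NF-kB gene lower and 3 gp130-STAT3 genes lower. For gp130-STAT3 genes, TMM, median-of-ratios scaling, the likelihood ratio test and DESeq2 each gave 1 higher call. Over all genes the likelihood ratio test called 2005 higher. The causes of these differences were not tested.

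The fit with the replicate block called 549 genes higher and 1064 lower, against 1306 and 1848 without it, and 2 NF-kB genes, 6 receptors and 5 gp130-STAT3 genes lower. It changed the call of no cytokine, with adjusted p of 0.0408 for Il1a, 0.0168 for Il1b, 0.0234 for Tnf, 0.0915 for Il6 and 0.129 for Csf1. With the pairing crossed, an alternative chosen after seeing the data, 1579 genes were called higher and 2320 lower, including 6 NF-kB genes and 1 gp130-STAT3 gene higher and 4 cytokines and 10 receptors lower. With 2 pools per group, intervals are wide: that of Il6 runs from -3.27 to -0.52, and that of Csf1 from -0.03 to 1.45. Il6 was called in 3 of the 12 alternatives and Csf1 in 2, with adjusted p of 0.00184 to 0.185 and 0.0218 to 0.31. Csf2 and Csf3 rest on few reads. No sample could be tested for standing apart, since each group holds 2.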
